A study of Mus musculus with 12 samples.

Results

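The genes described are 10 axon guidance genes of the Slit, Robo and netrin families, taken by symbol from the 15672 genes of the deposited table: the ligand genes Slit1, Slit2, Slit3 and Ntn1, and the receptor genes Robo1, Robo2, Robo3, Dcc, Unc5b and Unc5c. All 10 were in the table and all 10 passed the filter on low values, which 14147 genes passed. The filter was log2 CPM above 0 in at least 3 of 12 libraries, where CPM is read counts scaled by a factor for each library. They were chosen by symbol with their differences in log2 CPM between YSGr and SG in these data already known, so those differences are given below as a description, from which no test result is read, and members are tested only in comparisons involving the sexes.

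The 12 bulk RNA-seq libraries were made from mouse tissue that the labels call MB, collected at end point. YSGr mice carried fYap1, fSMO-M2 and hGFAPcre and are labelled as rescued, and SG mice carried fSMO-M2 and hGFAPcre without fYap1. SMO-M2 is a constitutively active form of Smoothened, the signal transducer of the Hedgehog pathway, and drives medulloblastoma, a tumour of the cerebellum, when it is switched on in granule neuron progenitors. Yap1 encodes a transcriptional co-activator that acts with TEAD factors. The active Smoothened and the Cre were therefore common to all 12 libraries, and the groups differ by the conditional Yap1 allele, which Cre driven by the human GFAP promoter deletes in neural progenitors and their progeny but not in cells outside that lineage. The libraries fall into 3 YSGr females (numbered 10 to 12), 3 YSGr males (7 to 9), 3 SG females (4 to 6) and 3 SG males (1 to 3). The labels give no age and do not say what was rescued.

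Slits are large secreted proteins that bind Robo receptors on the growth cone and mostly repel axons and migrating neurons. Netrin-1 attracts growth cones through Dcc and repels them where receptors of the Unc5 family are present. In the developing hindbrain and cerebellum these cues direct commissural axons across the midline and guide migrating neurons, granule cells among them.

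The libraries held 8854768 to 9478652 estimated reads. A single read was worth 0.100 to 0.111 CPM and 3 reads stood at 0.301 to 0.333 CPM. The worth of a read did not follow the read total alone. It was 0.1109 CPM in SG male 2, which had the most reads, and 0.1003 CPM in YSGr male 7 with 9221816 reads. Yap1 checked the labels: its log2 CPM was -0.02 to 1.82 in the 6 YSGr libraries and 4.29 to 4.80 in the 6 SG libraries, a log2 fold change of -3.64 ± 0.20 (SE; limma adjusted p = 1.1e-06). All 12 markers of granule neuron progenitors on the list used, Atoh1, Gli1 and Barhl1 among them, were measured, and their summed level was 4240 to 7070 CPM in YSGr and 5720 to 6620 CPM in SG, with 5 of the 12 called lower and 0 higher in YSGr. Of 14 markers of differentiating granule neurons 5 were called higher and 0 lower (3770 to 5170 CPM in YSGr, 3190 to 4000 CPM in SG). Of 12 markers of microglia and macrophages 3 were called higher and 0 lower (794 to 1230 CPM in YSGr, 538 to 622 CPM in SG). Of 12 markers of neural stem cells and astrocytes 6 were called lower and 1 higher, and of 6 neutrophil markers tested 6 higher and 0 lower. In this contrast, averaged over the sexes, 5.27% of all genes were called lower and 6.16% higher. SG male 2 and YSGr male 8 stood apart from the rest. SG male 2 was the lowest of the 6 SG libraries for 8 of the 10 guidance genes, and its genes of the 77 cytosolic ribosomal proteins took 6.02% of reads, against 3.28% to 3.63% in the other 5 SG libraries and 2.07% to 4.29% in YSGr. YSGr male 8 was the highest of the 6 YSGr libraries for 5 of the 10 guidance genes and the lowest for 2, and its 11 oligodendrocyte lineage markers summed to 11020 CPM, against 1190 to 3244 CPM in the other 5 YSGr libraries and 1882 to 3034 CPM in SG. Many of the fold changes that rest on either library are also given without it, while correlations are given only with both.

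Promoter sequence is shown for 3 members whose values separate the genotypes in at least 1 sex: Robo3, the receptor gene with the lowest YSGr value relative to SG, Slit2, lower in YSGr females, and Unc5b, higher in YSGr males. RefSeq promoter windows ran from 250 bases before to 50 bases after a start site in GRCm38.p6. Those used here came to 9 windows of 7 of the 10 members. No window was scored for Slit1, Dcc or Ntn1, so the motif counts below do not cover these genes. Slit1 also separated the genotypes in females, but without a window no stretch of it is printed. The stretches before the annotated gene start are printed 5′ to 3′ on the strand of the gene. They lie at chr9:37433247-37433425 on the minus strand for Robo3, chr5:47982905-47983137 on the plus strand for Slit2 and chr10:60831582-60831831 on the minus strand for Unc5b. Capitals would mark a GLI or TEAD motif, and these 3 stretches hold neither.
Robo3: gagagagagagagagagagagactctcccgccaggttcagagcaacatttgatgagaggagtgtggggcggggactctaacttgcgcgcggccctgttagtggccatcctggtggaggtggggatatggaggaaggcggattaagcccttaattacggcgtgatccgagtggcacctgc
Slit2: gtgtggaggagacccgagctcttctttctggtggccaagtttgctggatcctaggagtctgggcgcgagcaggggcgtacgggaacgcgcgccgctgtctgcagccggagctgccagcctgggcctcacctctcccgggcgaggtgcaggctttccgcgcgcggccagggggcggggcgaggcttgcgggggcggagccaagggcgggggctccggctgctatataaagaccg
Unc5b: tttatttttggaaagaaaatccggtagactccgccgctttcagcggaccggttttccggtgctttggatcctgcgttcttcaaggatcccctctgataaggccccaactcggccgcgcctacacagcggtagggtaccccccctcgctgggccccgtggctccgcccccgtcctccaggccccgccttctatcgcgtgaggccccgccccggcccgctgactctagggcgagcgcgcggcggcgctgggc
The GLI motif searched was GACCACCCA and the TEAD motif was CATTCC, each on both strands, and a match of one cannot contain the other. GLI factors are the transcription factors at the end of the Hedgehog pathway. Of all 32851 RefSeq promoter windows of 300 bases, 0.253% held the GLI motif and 14.7% held the TEAD motif. Among the 9 windows, of 7 guidance genes, 0 held the GLI motif and 1, a window of Robo2, held the TEAD motif, 44 bases after its start site. That window, at chr16:75092721-75093020, lies upstream of Robo2 as annotated here (73891839 to 74411825 on the minus strand). At the annotated start of Robo2, the window at 74411776 to 74412075 held 0 TEAD motifs. These are letter matches and no binding was measured.

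Slit1 was the ligand gene with the widest distance between the genotypes. Slit1 encodes a Slit made mainly by neurons and lies on chromosome 19 at 41600257 to 41743665 on the minus strand (mm10). It had 0.33, 1.20 and -0.88 log2 CPM in the 3 YSGr females (10, 20 and 3 reads), against 3.92, 4.40 and 4.20 log2 CPM in the 3 SG females (147, 191 and 166 reads). In males it had -0.97, 4.78 and 0.64 log2 CPM in YSGr (3, 257 and 13 reads) and 2.95, 2.38 and 3.42 log2 CPM in SG (73, 45 and 100 reads). Every YSGr female lay below every SG female, while in males 2 YSGr libraries lay below all SG libraries and YSGr male 8 lay above all of them. The log2 fold change of YSGr over SG was -3.95 ± 1.05 in females, -1.43 ± 1.05 in males and -2.69 ± 0.74 averaged over the sexes (SE, n = 3 libraries per genotype and sex). Each SE here and below comes from 1 spread per gene that all 4 groups share, not from the libraries of that sex alone. The SD of Slit1 was 1.04 in YSGr females and 0.24 in SG females, against 2.96 in YSGr males and 0.52 in SG males. On the linear scale, Slit1 averaged 1.16 CPM in YSGr females and 18.0 CPM in SG females, 15.6-fold lower in YSGr. Without YSGr male 8 it averaged 0.822 CPM in YSGr males and 7.67 CPM in SG males, 9.33-fold lower, and the averaged log2 fold change was -3.52. With YSGr male 8 the mean was 9.64 CPM in YSGr males, so that library alone decides the direction of the linear male means. In bulk tissue, fewer cells of a type that makes Slit1 and less Slit1 RNA per cell cannot be told apart.

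The other 2 Slits were low in all groups. Slit2, made by midline and other guidepost cells and the Slit most studied as a repellent, lies on chromosome 5 at 47983138 to 48307733 on the plus strand. It had 1.56, 2.26 and 2.28 log2 CPM in YSGr females (26, 44 and 42 reads), against 2.87, 2.76 and 2.56 log2 CPM in SG females (70, 60 and 52 reads). Slit2 had 1.90, 3.90 and 1.25 log2 CPM in YSGr males and 2.39, 1.91 and 3.00 log2 CPM in SG males. The 3 YSGr females lay below the 3 SG females, and the males overlapped, YSGr male 8 again being the highest. The log2 fold change of Slit2 was -0.70 ± 0.53 in females and -0.08 ± 0.53 in males, and -0.86 in males without YSGr male 8. Slit3, a ligand of the same family known mainly outside the nervous system, had 2 to 32 reads in the YSGr libraries and 7 to 16 reads in the SG libraries, with an averaged log2 fold change of 0.33 ± 0.41. The Slit3 ranges overlapped in both sexes.

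Ntn1, which encodes netrin-1, stayed within a narrow range. Its log2 CPM was 6.86 to 7.35 in the 6 YSGr libraries, with a median of 7.28, and 6.86 to 7.44 in the 6 SG libraries, with a median of 7.36. The lowest YSGr library was male 8 and the lowest SG library was male 2, both at 6.86. The other 10 libraries lay between 7.26 and 7.44. The averaged log2 fold change of Ntn1 was -0.07 ± 0.12, with a 95% interval of -0.32 to 0.19. Without SG male 2 it was -0.16, and without YSGr male 8 it was 0.01.

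**Figure D1:**
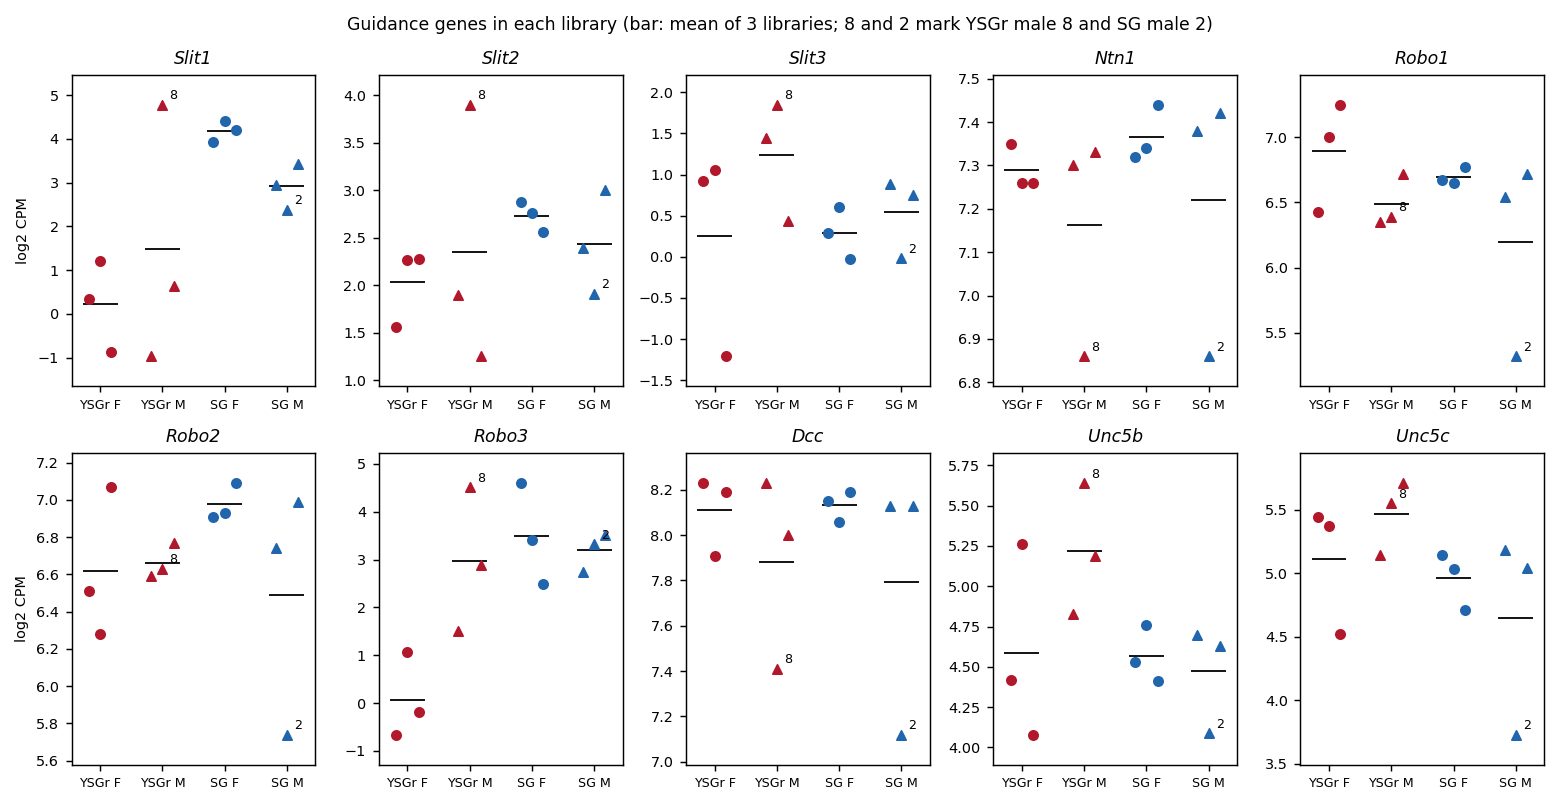
Log2 CPM (vertical axis) of the 10 guidance genes in each of the 12 libraries, with YSGr in red, SG in blue, females (F) as circles, males (M) as triangles and a bar at the mean of 3 libraries; each panel has its own scale. Slit1 and Robo3 are low in the 3 YSGr females (-0.88 to 1.20 and -0.66 to 1.06 log2 CPM) and high in YSGr male 8 (4.78 and 4.51 log2 CPM), while SG male 2 is the lowest SG library for 8 of the 10 genes.

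Among the receptors, Robo3 was the one with a distance between the genotypes close to that of Slit1. Robo3 encodes the divergent Robo that lets commissural axons of the hindbrain and spinal cord cross the midline, and it lies on chromosome 9 at 37415669 to 37433246 on the minus strand, downstream of the promoter stretch printed above. It had -0.66, 1.06 and -0.19 log2 CPM in YSGr females (4, 18 and 6 reads), against 4.60, 3.40 and 2.48 log2 CPM in SG females (237, 95 and 49 reads). In males Robo3 had 1.50, 4.51 and 2.88 log2 CPM in YSGr (26, 213 and 69 reads) and 2.74, 3.32 and 3.51 log2 CPM in SG (63, 88 and 106 reads). The females of the 2 genotypes did not overlap, and the YSGr males spread on both sides of the SG males. The log2 fold change of Robo3 was -3.42 ± 0.70 in females, -0.23 ± 0.70 in males and -1.83 ± 0.49 averaged over the sexes. The linear means were 0.987 CPM in YSGr females and 13.3 CPM in SG females, 13.4-fold lower in YSGr. In males without YSGr male 8 they were 4.87 CPM in YSGr and 9.13 CPM in SG, 1.87-fold lower, and with it the YSGr mean was 10.8 CPM.

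Robo1 and Robo2, the main Slit receptors on neurons, lie 845743 bases apart on chromosome 16 and did not follow Robo3. Robo1 had 6.35 to 7.25 log2 CPM in YSGr (median 6.58) and 5.32 to 6.77 log2 CPM in SG (median 6.66), and its averaged log2 fold change was 0.25 ± 0.22, or 0.03 without SG male 2. Robo2 had 6.28 to 7.07 log2 CPM in YSGr (median 6.61) and 5.74 to 7.09 log2 CPM in SG (median 6.92), and its averaged log2 fold change was -0.09 ± 0.19, or -0.28 without SG male 2. The ranges of both genes overlapped, and SG male 2 was the lowest library for each.

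Dcc, the attractive netrin receptor, lies on chromosome 18 and overlapped between the genotypes, as its ligand did, over a wider range. It had 7.41 to 8.23 log2 CPM in YSGr (median 8.09) and 7.12 to 8.19 log2 CPM in SG (median 8.13). The averaged log2 fold change of Dcc was 0.03 ± 0.18, with a 95% interval of -0.36 to 0.43. It was -0.14 without SG male 2 and 0.15 without YSGr male 8. As for Ntn1, the lowest libraries were YSGr male 8 and SG male 2. Over the 12 libraries Dcc and Ntn1 had a Pearson r of 0.934, given as a description because both hold the same low libraries.

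The repulsive netrin receptors lay on the higher side in YSGr males. Unc5b, known both in neurons and in the endothelium of growing vessels, had 4.83, 5.64 and 5.19 log2 CPM in YSGr males, against 4.70, 4.09 and 4.63 log2 CPM in SG males. It had 4.42, 5.26 and 4.08 log2 CPM in YSGr females and 4.53, 4.76 and 4.41 log2 CPM in SG females. The males did not overlap and the females did. The log2 fold change of Unc5b was 0.75 ± 0.29 in males and 0.02 ± 0.29 in females. In males it was 0.54 without YSGr male 8, the highest YSGr library, and at most 0.95 without any 1 library. The lowest male value in the other alternatives was 0.35. SG male 2 was the lowest SG library for Unc5b. Unc5c, whose loss misplaces granule cells in mice with the rostral cerebellar malformation, had 5.14, 5.55 and 5.71 log2 CPM in YSGr males and 5.18, 3.73 and 5.04 log2 CPM in SG males. Its log2 fold change in males was 0.82 ± 0.35 with overlapping ranges, and 0.36 without SG male 2, the lowest library. Unc5c shares 118 exon bases with an antisense gene, Gm15688, and whether the counting used strand is not given in the sources used here.

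**Figure D2:**
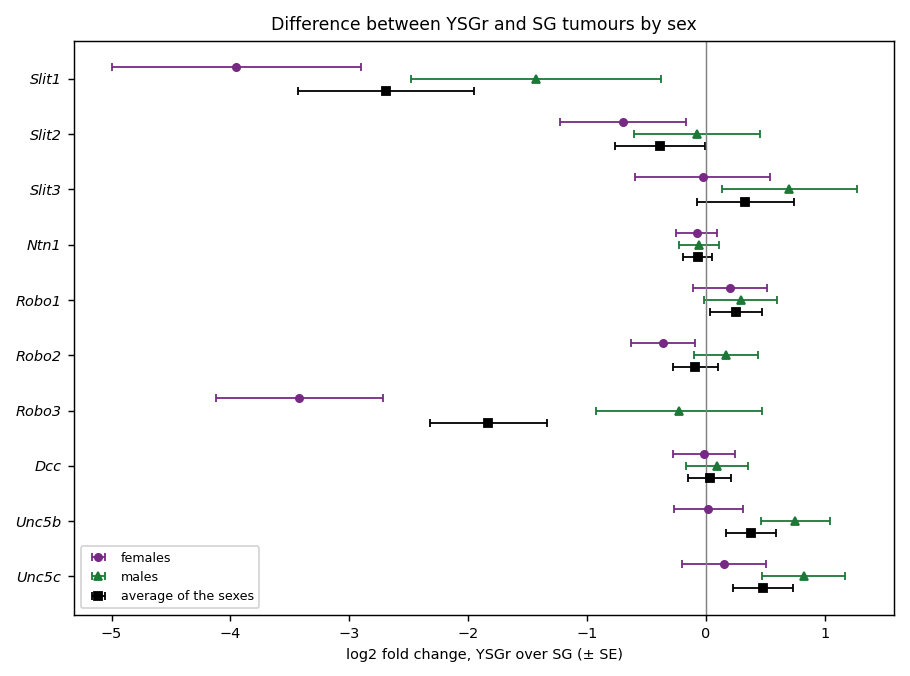
Log2 fold change of YSGr over SG (horizontal axis) for each guidance gene in females (purple circles), in males (green triangles) and averaged over the sexes (black squares). Bars are ± SE from limma, from a spread per gene that all 4 groups share. Slit1 and Robo3 lie far below 0 in females (-3.95 and -3.42), Unc5b and Unc5c lie above 0 in males (0.75 and 0.82), and Ntn1 and Dcc lie within 0.1 of 0.

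In the contrast of the genotypes averaged over the sexes, 2 of the 10 members, Slit1 and Robo3, were past the limma threshold of an adjusted p of 0.05 in the lower direction and 0 in the higher direction. Of all genes tested, 5.27% were called lower and 6.16% higher. In females, Robo3 alone was past the threshold, in the lower direction, where 1.87% of all genes were called lower and 1.15% higher, and in males no member was, where 3.42% were called lower and 4.43% higher. The spread behind these calls is also shared by all 4 groups. Nothing is read from these counts, since the members were picked with this contrast known. In order of the averaged contrast, the last member inside the threshold was Slit1 at -2.69 and the next, well outside it, was Unc5c at 0.48. The values of YSGr and SG did not overlap for Slit1, Slit2 and Robo3 in females, all lower in YSGr, as for 13.9% of all genes, and for Unc5b in males, higher in YSGr, as for 16.3% of all genes. The median log2 fold change was -0.02 over the 10 members and 0 over all genes tested.

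Slit1 and Robo3 depended on single libraries for their calls. Robo3 was past the threshold in 5 of the 12 fits that leave out 1 library and Slit1 in 3 of them. Leaving out YSGr female 10, YSGr male 7, YSGr male 9, SG male 3, SG female 4 or SG female 5 ended both calls, and leaving out YSGr female 12, SG male 1, SG female 6 or SG male 2 ended 1 of the 2. The averaged fold changes kept their direction in those 12 fits and ranged from -3.52 to -2.08 for Slit1 and from -2.21 to -1.46 for Robo3.

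**Figure D3:**
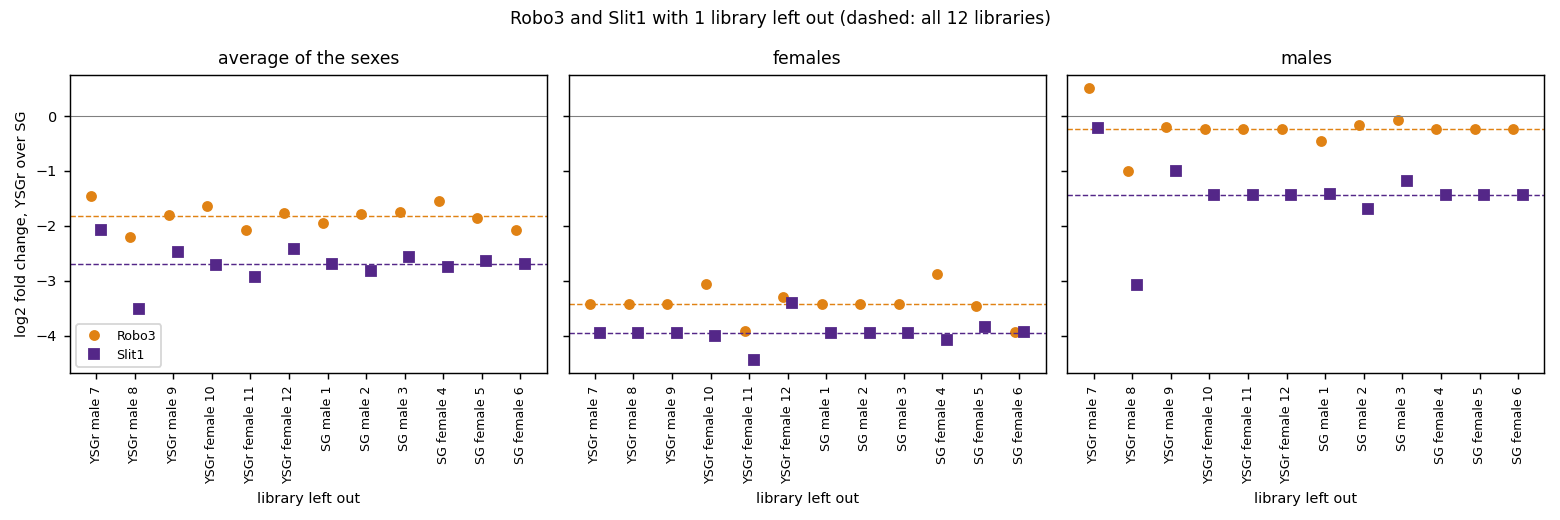
Log2 fold change of YSGr over SG (vertical axis) for Robo3 (orange circles) and Slit1 (purple squares) when the library named on the horizontal axis is left out, with the value from all 12 libraries dashed. The female values stay between -4.44 and -2.87, whereas the male values move with YSGr male 7 and YSGr male 8, to 0.51 for Robo3 without the one and to -3.08 for Slit1 without the other.

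Comparing the sexes used contrasts other than YSGr against SG. The genotype effect in females minus that in males, and the sexes within 1 genotype, share values with YSGr against SG in each sex. They are therefore not fully separate from the choice of members. For Robo3 the genotype effect in females minus that in males was -3.20 on the log2 scale (95% interval -5.33 to -1.07, limma adjusted p = 0.43). The female effect was -3.42 and the male effect -0.23. Without YSGr male 8 that difference between the effects was -2.42. For Slit1 it was -2.52 (95% interval -5.72 to 0.68; limma adjusted p = 0.48), and it was -0.87 without YSGr male 8 and -0.60 without YSGr male 8 and SG male 2. Of the 10 members 0 were past the threshold, by limma, and 1 at an unadjusted p under 0.05, while 0.00707% of all genes were called and 11.6% had an unadjusted p under 0.05. The difference for Robo3 was not past the threshold in any fit that leaves out 1 library. It was past it when libraries were weighted by how closely they followed their group (-3.18, limma adjusted p = 0.038). Over all alternatives the limma adjusted p ran from 0.038 to 0.78. The weights come from the fit and not from a measured quality. They were 3.331 for YSGr female 10, against 0.27 and 0.417 for YSGr females 11 and 12. The other 8 members had differences between -0.73 and -0.02.

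Within YSGr, Robo3 was lower in females than in males. The 3 YSGr females (-0.66, 1.06 and -0.19 log2 CPM) lay below the 3 YSGr males (1.50, 4.51 and 2.88 log2 CPM), as did 9.35% of all genes, with a female minus male difference of -2.89 (95% interval -4.40 to -1.39; limma adjusted p = 0.14). The difference was -2.12 without YSGr male 8. It was past the threshold without YSGr female 11 (-3.39, limma adjusted p = 0.019) and with library weights (-2.84, limma adjusted p = 0.013). Over all alternatives the limma adjusted p ran from 0.013 to 0.53. In the same libraries Yap1 had 0.21, 0.55 and -0.02 log2 CPM in YSGr females and 1.82, 1.72 and 0.73 log2 CPM in YSGr males, a difference of -1.18 (limma adjusted p = 0.14), and its part in the Robo3 difference was not tested. Unc5b differed by -0.64 between the sexes of YSGr (95% interval -1.26 to -0.01; limma adjusted p = 0.27), and by -0.97 without YSGr female 11 (limma adjusted p = 0.041), with adjusted p from 0.041 to 0.70 over all alternatives. None of the 10 members was past the threshold in YSGr, where 0.0778% of all genes were, and 2 had an unadjusted p under 0.05, as had 18.1% of all genes.

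Within SG, the 3 females had more Slit1 (3.92, 4.40 and 4.20 log2 CPM) than the 3 males (2.95, 2.38 and 3.42 log2 CPM), as did 5.92% of all genes. The female minus male difference was 1.25 (95% interval -1.01 to 3.51, limma adjusted p = 0.98). Without SG male 2 the difference was 0.98 on the log2 scale. The spread behind the interval is shared by all 4 groups. By limma, 0 of 10 members were past the threshold in SG, where 0.0353% of all genes were, and 0 had an unadjusted p under 0.05, as had 1.83% of all genes. Averaged over the genotypes, the largest differences were -1.29 for Robo3 (limma adjusted p = 0.51) and -0.62 for Slit3 (limma adjusted p = 0.67). There 0 of the 10 members were past the threshold, against 0.0636% of all genes, and 1 had an unadjusted p under 0.05, as had 8.72% of all genes.

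Levels of 2 of the marker lists scored are shown beside the values of Slit1 and Robo3. YSGr male 8 held 257 of the 306 Slit1 reads and 213 of the 336 Robo3 reads of the 6 YSGr libraries. There the 11 oligodendrocyte lineage markers were at 11020 CPM and the 12 granule neuron progenitor markers at 4237 CPM, the lowest of the 12 libraries. The same library was the highest in YSGr for endothelial markers (158 CPM) and neutrophil markers (40 CPM). It was the lowest of the 12 for ependyma and choroid plexus markers (113 CPM). The oligodendrocyte list had 3 markers called lower and 0 higher among 11 tested in the averaged contrast, with none at 0 reads in all libraries. Its median log2 fold change was 0.13, with 7 of the 11 above 0. In that contrast 5.27% of all genes were called lower and 6.16% higher. Without YSGr male 8 the difference between the genotypes was larger for both genes, at -3.52 for Slit1 and -2.21 for Robo3. Of the 11 markers of Purkinje cells and cerebellar interneurons, 1 was called lower and 0 higher in the averaged contrast. Their median log2 fold change was 0.34, with 8 above 0. These markers summed to 207 to 1660 CPM in YSGr and 388 to 680 CPM in SG, with none at 0 reads in all libraries. They were lowest in YSGr female 12 (207 CPM) and YSGr female 10 (220 CPM), 2 of the 3 libraries with the fewest Robo3 reads, but stood at 1296 CPM in YSGr female 11 with 18 Robo3 reads. They were highest in YSGr male 7 (1660 CPM), which had 3 Slit1 reads and 26 Robo3 reads. The part of these cells in the Robo3 values was not tested.

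**Figure D4:**
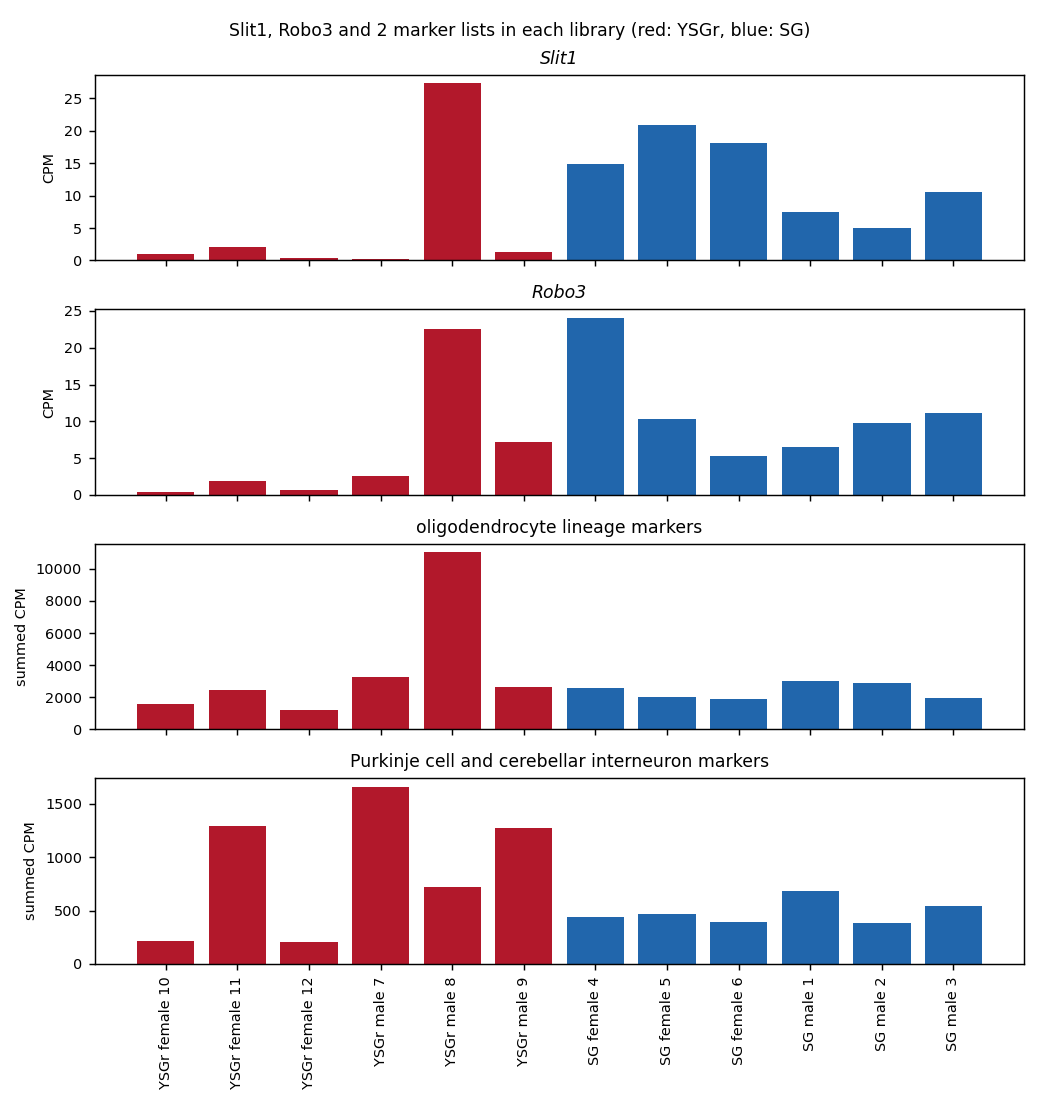
Slit1 and Robo3 (CPM) and the summed CPM of the oligodendrocyte lineage markers and of the Purkinje cell and cerebellar interneuron markers (vertical axes) in each library (horizontal axis), YSGr in red and SG in blue. YSGr male 8 has the tallest bar for Slit1 and for the oligodendrocyte markers (11020 CPM), and the Purkinje cell and interneuron markers range more widely in YSGr (207 to 1660 CPM) than in SG (388 to 680 CPM).

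The guidance genes differed widely in level once read counts were divided by exon length. That length is the union of the exons of all annotated transcripts, 25433 bases for Slit2 and 6067 bases for Slit3, and the order depends on it. In YSGr, Slit2 had 307 reads and Slit3 had 104. In YSGr the order of mean levels was Ntn1 (24.0 CPM per kb), Dcc (19.7), Robo1 (6.43), Robo2 (5.94), Unc5b (5.07), Unc5c (2.10), Slit1 (0.911), Robo3 (0.859), Slit3 (0.297) and Slit2 (0.212 CPM per kb). In SG it was Ntn1 (25.2 CPM per kb), Dcc (19.5), Robo2 (6.51), Robo1 (5.54), Unc5b (3.68), Slit1 (2.17), Robo3 (1.64), Unc5c (1.53), Slit2 (0.234) and Slit3 (0.192 CPM per kb). Netrin-1 and its attractive receptor thus headed the order in both genotypes. Neighbours in the order overlapped in range except at the step below Dcc in both genotypes and the step between Unc5c and Slit2 in SG.

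Long genes were common among the members, a property that did not serve to pick them. In mm10, 6 of the 10 (Robo1, Robo2, Slit2, Slit3, Dcc and Unc5c) span more than 300 kb, against 3.61% of the 14081 tested genes with an annotated length, and 5 have more than 12 kb of exons, against 6.02%. In SG male 2 the level of a gene relative to the other 5 SG libraries fell with its length: the median log2 difference was 0.45 for genes spanning up to 10 kb and -0.62 for those over 300 kb, and 0.64 for up to 2 kb of exons and -0.75 for over 12 kb. In YSGr male 8 the same median ran the other way, at -0.14 and 0.32 by span, and in YSGr female 12 it was 0.09 and -0.29. In the other 10 libraries it lay between -0.29 and 0.12 for genes over 300 kb. Slit1 (143.4 kb) and Robo3 (17.6 kb) are not among the longest members, and the 5 members at which SG male 2 lay far below the other SG libraries were Robo1, Robo2, Dcc, Unc5c and Ntn1. The part of gene length in those 5 low values was not tested.

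**Figure D5:**
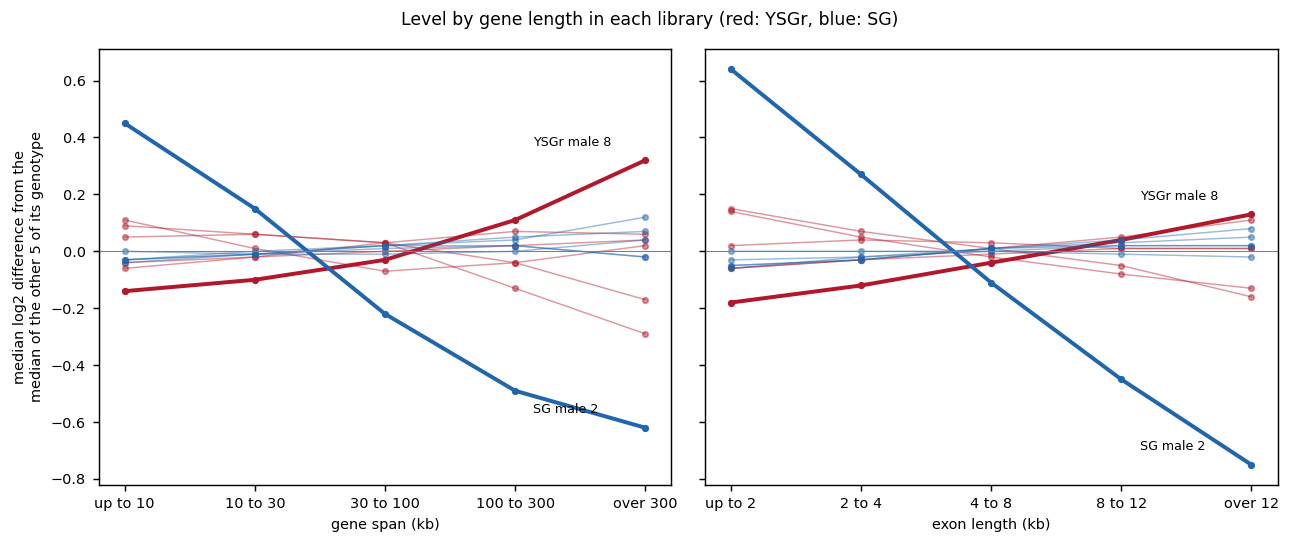
Median log2 difference of each library from the median of the other 5 libraries of its genotype (vertical axis) for genes binned by span (left) and by exon length (right), in kb, with YSGr in red and SG in blue. SG male 2 falls from 0.45 to -0.62 and YSGr male 8 climbs from -0.14 to 0.32 from the shortest to the longest spans, and YSGr female 12 goes from 0.09 to -0.29, the widest of the other 10 libraries.

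The other guidance lists were, like the members, chosen with earlier results of these data known, so their calls are given as a description. Among other genes of the same pathways, 10 of 41 tested passed the threshold in the averaged contrast, 3 higher and 7 lower in YSGr. Of all genes, 6.16% were called higher and 5.27% lower. The list had a median log2 fold change of 0.01, against 0 over all genes. Ntn3, a netrin gene, was 3.10 to 4.13 log2 CPM in YSGr and 4.28 to 4.74 log2 CPM in SG, and fell by 0.95 on the log2 scale (limma adjusted p = 0.0053). Rgma, a repulsive ligand of the Dcc relative neogenin, fell by 0.87 (limma adjusted p = 0.00089), Rgmb of the same family by 0.33 (limma adjusted p = 0.019), and Gpc1, a glypican, by 0.55 (limma adjusted p = 0.0014). For these 4 genes the 6 YSGr libraries lay below the 6 SG libraries, as for 2.96% of all genes tested. The cytoplasmic effectors went both ways: the kinase gene Pak1 rose by 0.87 (limma adjusted p = 0.011) and Ablim1, which encodes an actin-binding protein, by 0.86 (limma adjusted p = 0.020), while Dock1, a Rac activator gene, fell by 0.56 (limma adjusted p = 0.022). Ntng2, encoding a membrane-anchored netrin-G, fell by 0.51 (limma adjusted p = 0.042). Trim67 (0.33) and Abl1 (-0.30) were also past the threshold and are named after their values were seen. Ntn5 was not analysed here.

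Not all of these calls held when 1 library was left out. Those of Ntn3, Rgma, Gpc1 and Pak1 held in 12 of 12 such fits. Ablim1 was lost without SG female 4 (limma adjusted p = 0.052) and Rgmb without SG female 5 or 6 (limma adjusted p up to 0.060). Dock1 was lost without YSGr female 10, YSGr male 9, SG female 6, SG female 5 or SG male 3 (limma adjusted p up to 0.065). Abl1 was lost without SG male 1, SG male 3, any SG female or YSGr female 10 (limma adjusted p up to 0.080). Ntng2 held in 3 fits, without YSGr male 7, YSGr male 8 or YSGr female 11, and Trim67 in 4, without SG male 1, SG male 2, YSGr male 8 or YSGr female 12, and both reached a limma adjusted p of 0.11 in the others. Unlike Ntn3, some other relatives of the members were not past the threshold. Robo4, the endothelial Robo 553 bases from Robo3, had a log2 fold change of -0.49 (limma adjusted p = 0.13) and Neo1 of -0.02 (limma adjusted p = 0.94). Unc5a had a log2 fold change of 0.58 (limma adjusted p = 0.21) and Unc5d of 0.61 (limma adjusted p = 0.22).

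Of 31 semaphorin, plexin and neuropilin genes, another guidance system, 3 were called higher and 1 lower in YSGr, beside the same 6.16% and 5.27% of all genes, with a median log2 fold change of 0.19. The share of the list that was called is near that of all genes. Sema3e, the ligand of plexin D1, rose by 1.50 (limma adjusted p = 0.013) and held in 12 of 12 fits without 1 library. Sema4f rose by 0.64 (limma adjusted p = 0.021) and was lost without SG female 6 or YSGr female 10. Sema3g rose by 0.93 (limma adjusted p = 0.039) and held only without YSGr male 7, YSGr female 11 or YSGr female 12. Sema7a, a membrane-anchored semaphorin gene, fell by 0.37 (limma adjusted p = 0.036) and held only without YSGr female 12, YSGr male 9, YSGr male 7 or SG male 2. In the fits that lost them, the limma adjusted p was at most 0.060 for Sema4f, 0.11 for Sema3g and 0.098 for Sema7a.

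Of 20 ephrin and Eph receptor genes tested, 1 was called higher and 4 lower in YSGr, where 6.16% and 5.27% of all genes were, with a median log2 fold change of -0.09. Ephb4, a receptor known from veins, fell by 1.14 (limma adjusted p = 0.00013), Epha2 by 1.12 (limma adjusted p = 0.0085) and Efna4 by 0.98 (limma adjusted p = 0.0021). Ephb2 rose by 0.50 (limma adjusted p = 0.0089). These 4 calls held in 12 of 12 fits without 1 library and their genotypes did not overlap, nor did those of Efnb1. Of all genes, 2.96% lay lower and 2.93% higher in YSGr without overlap. Efnb1, an ephrin-B gene, fell by 0.46 (limma adjusted p = 0.023) and was lost without YSGr female 10, YSGr male 7, SG female 6 or SG female 4 (limma adjusted p up to 0.069). Endothelial markers, with 5 of 14 lower and 1 higher, summed to 92 to 158 CPM in YSGr and 122 to 188 CPM in SG, with none at 0 reads in all libraries, and their part in the Ephb4 value was not tested.

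The genes most like each member over the 12 libraries were found by Pearson r and are given as a description. Kank4 was among the genes most like Slit1 (r = 0.926), and Robo3 was most like Garem2 (r = 0.946) and Pacsin2 (r = 0.930). Within the 6 YSGr libraries alone r was 0.906 for Slit1 and Kank4 and 0.955 for Robo3 and Garem2, and within the 6 SG libraries it was 0.842 for Slit1 and Kank4 and 0.914 for Robo3 and Garem2. Within SG it was 0.746 for Robo3 and Pacsin2. Slit2 was most like Gabrg3 (r = 0.939, and 0.629 within SG) and Unc5b most like Cdh12 (r = 0.970, and 0.983 within SG). All these pairs share YSGr male 8 and SG male 2. Among the members themselves, the pair after Dcc and Ntn1 was Robo3 and Slit1 (r = 0.794).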

How the data were processed

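Bulk RNA-seq values came as 1 table in which the authors deposited log2 CPM for each gene and library. Per the submitters' processing notes, the build was mm10 and the tools named are edgeR 3.30.3, Picard 1.95, Bowtie2, RSEM 1.2.12 and Trimmomatic 0.33. Not given in the sources used here are the role of each tool, the annotation, the strand setting and any filter the authors set. On the linear scale the values lay on equal steps, and 92.1% to 93.1% of them were whole reads within 0.02 after removal of a prior count averaging 2 reads, which gives the estimated reads. No 2 libraries were identical.

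The log2 values were fitted with limma 3.58.1 in R 4.3.3, with 1 coefficient for each genotype and sex, a mean-variance trend, two-sided tests and Benjamini-Hochberg adjustment over the 14147 genes that exceeded 0 log2 CPM in 3 or more of 12 libraries, at a threshold of 0.05. The procedure was tested on simulated data. Members and gene lists were chosen with earlier results of these data known. Genes named from the other guidance lists are up to 8 per list with the largest absolute log2 fold change among those called, and the 2 genes most like a member are those of highest Pearson r, of which 1 is not reported here. Coordinates are from GENCODE M21 (mm10), which held 99.6% of the symbols. Nothing states that libraries came from separate animals, so the p-values rest on a spread between samples that may be technical. Alternatives were no filter and a stricter one, log2(CPM + 1), median centring, library weights, pooled sexes and leaving out libraries; leaving out SG male 2 and YSGr male 8 together was chosen after seeing the data. Library numbers do not repeat between groups, so no pairing was used.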

Additional observations from a re-analysis of the deposited data

Results flagged for a closer look

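Each gene was examined within the 6 libraries of a genotype for a lowest or highest library set apart by a gap that is large relative to the whole range (Dixon's criterion), which chance meets in about 1 of 20 groups. In YSGr, male 8 lay apart for Ntn1 at 6.86 log2 CPM, with the next library at 7.26. In SG, male 2 lay apart as the lowest library for 5 members: Robo1 at 5.32 log2 CPM (next 6.54), Robo2 at 5.74 (next 6.74), Dcc at 7.12 (next 8.06), Ntn1 at 6.86 (next 7.32) and Unc5c at 3.73 log2 CPM (next 4.71). All 6 values belong to these 2 libraries, and the cause was not tested.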

How the results depend on the processing

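Of 547 recomputed values of the members in YSGr against SG, 35 changed sign, 23 lost the call and 12 gained one; of 716 in contrasts involving the sexes, 61 changed sign, 0 lost a call and 4 gained one. Counts of genes called changed most with library weights: 4986 against 1617 without them for the averaged genotype contrast, 4483 against 426 in females, 2326 against 1111 in males and 675 against 1 for the female minus male effect. For female against male they were 1542 against 9 averaged, 1819 against 11 in YSGr and 28 against 5 in SG. Without SG male 2 and YSGr male 8 they were 1267 in females, 247 in males and 19 for the sexes in YSGr. Leaving out 1 library gave 903 to 2087, 94 to 785 and 289 to 1665 for the 3 genotype contrasts in that order, 1 to 115 for the female minus male effect, and 7 to 307, 9 to 1029 and 5 to 5 for the sexes; the values 115, 307 and 1029 are without YSGr female 11. The members called lower, 2 in the report, were 0 with no filter, 4 with library weights, 1 with sexes pooled and 3 without both libraries. With library weights the other pathway genes had 9 higher and 13 lower, the semaphorin list 6 and 6, and the ephrin list 2 and 9. Without both libraries the semaphorin list had 3 lower and the ephrin list 7 lower, and with sexes pooled the other pathway genes had 1 higher.

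In YSGr against SG the sign changes included Robo3 in males (0.51 without YSGr male 7), Slit2 in males (0.47 without YSGr male 9), Robo1 and Robo2 in males (-0.14 and -0.20 without SG male 2), Slit3 in females (0.70 without YSGr female 12) and averaged Robo1 (-0.12 with library weights); neither Slit1 nor Robo3 changed sign in females or in the average. In contrasts of the sexes they were as follows. For the female minus male effect, library weights gave Slit3 0.09, Dcc 0.13, Ntn1 0.10 and Unc5c 0.09, and leaving out both libraries gave Robo1 0.29, Slit2 0.43 and Ntn1 0.01. Averaged over genotypes, Slit1 was 0.02 with log2(CPM + 1), 0.00 median centred, 0.52 with weights and 0.68 without both libraries, which also gave Slit2 0.25, Dcc 0.00 and Ntn1 -0.03. In YSGr, leaving out both gave Slit1 0.38, Slit2 0.46, Dcc -0.01 and Ntn1 -0.02. In SG, weights gave Ntn1 -0.02, Unc5b -0.08 and Unc5c -0.14, and leaving out both gave -0.03, -0.09 and -0.15 for the same genes. With 1 library left out, the female minus male effect ranged from -0.36 to 0.34 for Robo1, -1.16 to 0.16 for Slit2, -1.14 to 0.00 for Slit3, -0.35 to 0.23 for Dcc and -0.17 to 0.16 for Ntn1. Averaged over genotypes the range was -0.62 to 0.82 for Slit1, -0.29 to 0.38 for Slit2 and -0.25 to 0.12 for Unc5c. In YSGr it was -0.27 to 0.13 for Robo2, -2.49 to 0.38 for Slit1, -0.87 to 0.46 for Slit2, -0.01 to 0.40 for Dcc and -0.02 to 0.21 for Ntn1. In SG it was -0.25 to 0.81 for Robo3, -0.03 to 0.25 for Ntn1, -0.09 to 0.21 for Unc5b and -0.15 to 0.58 for Unc5c. The cause was not tested.

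No paired analysis was possible because library numbers do not repeat between groups. Slit1 had 3 to 20 reads and Robo3 4 to 18 reads per YSGr female, which limits the precision of their fold changes.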
